A study of Mus musculus with 9 samples.

Results

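The genes described here are 8 of the 14300 genes listed in both deposited tables, chosen by name because together they make, export, sense and destroy the signalling lipid sphingosine-1-phosphate (S1P). They are the exporter Spns2, the kinases Sphk1 and Sphk2, the lyase Sgpl1, the phosphatase Sgpp1 and the receptors S1pr1, S1pr2 and S1pr3. Spns2 was chosen because it stood above control in androgen-treated muscle, so its levels in ORX+DHT muscle are given as a description with no test. The other 7 were named for their place in the same pathway. RNA was measured in tibialis anterior, a fast muscle of the lower leg. The mice were male C57BL/6J, and muscle was taken 4 weeks after treatment, with 3 libraries for each of 3 groups. The groups were Control (called sham in the tables), ORX (mice whose testes, the main source of androgen, were removed) and ORX+DHT (orchiectomised mice given dihydrotestosterone, a potent androgen). All mice carry the same C57BL/6J background with no engineered allele named. Replicates are labelled biological, without saying whether each is a single animal, and the dose and route of dihydrotestosterone and the age of the mice are not given in the sources used here.

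S1P is made inside cells when a sphingosine kinase adds a phosphate to sphingosine, the backbone released from ceramide. It leaves the cell through transporters such as SPNS2, which is best known in the endothelium, where it supplies S1P to lymph and blood, and it acts on G protein-coupled receptors on the surface of neighbouring cells. Inside the cell it is either turned back into sphingosine by a phosphatase or cleaved for good by the S1P lyase. In skeletal muscle S1P is known for activating satellite cells, the stem cells of the fibre.

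Values are normalised counts, that is, read counts divided by a scaling factor of each library, on a scale shared by all 9 libraries. Libraries were shallow, with 1340209 to 1682235 reads over the listed genes. The 6 markers of skeletal muscle fibre were all abundant, with summed levels of 239351 to 288888 in control, 195297 to 208447 with ORX alone and 218223 to 237440 in ORX+DHT muscle. Of these 6, limma called 2 higher in ORX+DHT muscle relative to ORX, where 4.08% of all genes tested were called in either direction. These were Myh1 (log2 fold change 0.47, limma adjusted p 0.00755) and Acta1 (0.47, limma adjusted p 0.00357). The rest did not pass: on the log2 scale Myh4 stood at -0.083, Ckm at 0.066, Mylpf at 0.17 and Tnnt3 at 0.18. The part of the fibre markers in the level of Spns2 was not tested. Control replicate 1 stood apart from the other 8 libraries on the first principal component, which held 30.7% of the variance. Fold changes against control are therefore also given without that library. This was done for the 6 of the 8 genes abundant enough to test (not Sphk1 and S1pr2) and for the named pathway genes. All 9 pairs of libraries within a group differed by more than sampling noise, so each library was counted once.

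Spns2 (ENSMUSG00000040447, chr11:72451638-72489904, minus strand, build GRCm38) had the widest spread of levels among the 8 genes. Its level was 58.7, 87.3 and 82.4 normalised counts in control muscle, 48.1, 46.9 and 58.7 in ORX muscle and 203, 197 and 251 in ORX+DHT muscle. All 3 ORX+DHT libraries lay far above all 6 others, while control replicate 1 and ORX replicate 3 were level. The group means were 76.2 ± 15.3 in control, 51.2 ± 6.51 in ORX alone and 217 ± 29.6 in ORX+DHT muscle (SD, n = 3). The mean in ORX+DHT muscle was 4.23 times that in ORX muscle and 2.85 times that in control muscle. These values rest on 209, 175 and 658 reads summed over the 3 libraries of each group, with exact Poisson 95% intervals of 182 to 239, 150 to 203 and 609 to 710 reads, which cover counting error only.

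**Figure D1:**
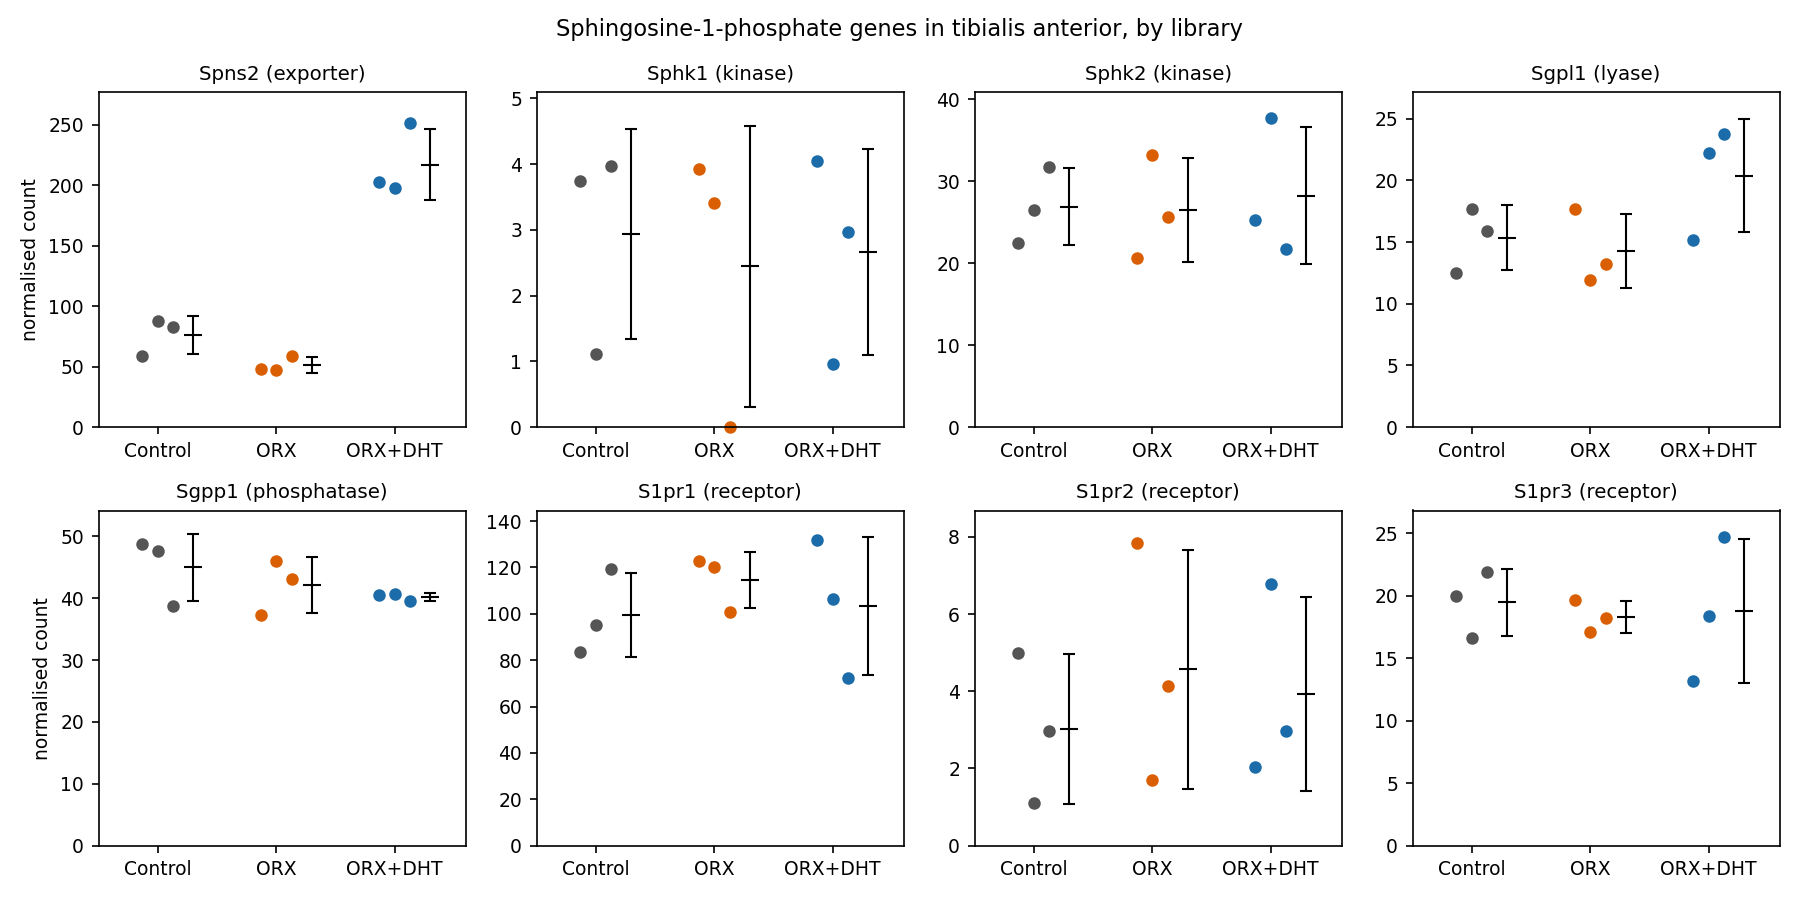
Normalised count (y axis, from 0) of each of the 8 genes in every library; points are libraries in Control, ORX and ORX+DHT muscle, and the bar beside them is the mean ± SD (n = 3). Spns2 in ORX+DHT muscle lies between 197 and 251, above its other 6 values, whereas the 3 groups overlap for the other 7 genes.

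The start of Spns2 was looked at for the letters of the androgen receptor's binding site, a hexamer (AGAACA, or TGTTCT on the other strand) and its inverted repeat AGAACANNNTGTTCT. RefSeq windows of GRCm38.p6, 250 bases before to 50 after a start site, were found for 7 of the 8 genes (12 windows, of which 5 belong to Sphk1 and partly overlap); S1pr1 had none. The hexamer occurred in 1 of these 12 windows, that of Sgpp1, and in 19.0% of all 32851 windows of the same length. The inverted repeat occurred in 0 of the 12 and in 0.00913% of all windows. The 250 bases before the start are shown for Spns2, whose level differed most, and for Sgpp1, which held the hexamer (in capitals, beginning 81 bases before the start) at a level that moved little. The Spns2 window (chr11:72475028-72475277, minus strand) belongs to the start of a processed transcript inside the gene, and the starts of the coding transcripts at 72489904 and 72456621 on chromosome 11 in GENCODE M21 were not searched. The Sgpp1 window is chr12:75735730-75735979, minus strand.
Spns2: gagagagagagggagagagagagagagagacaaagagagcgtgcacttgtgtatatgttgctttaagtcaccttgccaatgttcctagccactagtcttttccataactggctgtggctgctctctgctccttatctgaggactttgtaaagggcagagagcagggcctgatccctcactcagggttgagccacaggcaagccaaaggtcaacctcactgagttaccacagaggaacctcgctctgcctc
Sgpp1: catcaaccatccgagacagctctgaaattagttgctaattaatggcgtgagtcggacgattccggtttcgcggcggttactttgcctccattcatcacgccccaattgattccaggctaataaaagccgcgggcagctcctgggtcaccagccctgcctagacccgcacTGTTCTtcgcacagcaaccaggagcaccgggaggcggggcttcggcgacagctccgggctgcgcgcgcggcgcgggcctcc
The windows describe letters only, and where the androgen receptor binds was not measured.

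To compare the 8 genes with each other, normalised counts were divided by the length of each gene's merged exons (normalised counts per kb). On this scale S1pr1 was highest in control muscle (32.6 ± 5.95) and in ORX muscle (37.6 ± 3.92), with Spns2 next (18.7 ± 3.75 and 12.6 ± 1.59). In ORX+DHT muscle the order of this pair was the other way round, with Spns2 at 53.1 ± 7.25 and S1pr1 at 33.9 ± 9.82 (SD, n = 3). Every library of the higher gene was above every library of the lower gene in each of the 3 groups. Sgpp1 and Sphk2 followed and overlapped each other in all 3 groups (7.96 ± 0.965 and 6.48 ± 1.12 per kb in control). S1pr3 (4.36 ± 0.598) and Sgpl1 (2.50 ± 0.430) came below them in control, separated in every library there and in ORX, and overlapping in ORX+DHT muscle. Sphk1 and S1pr2 were lowest, at 0.38 to 0.62 per kb in the means of the groups, and did not separate from each other. The merged exons cover every annotated transcript of a gene, whether or not it is used in muscle.

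**Figure D2:**
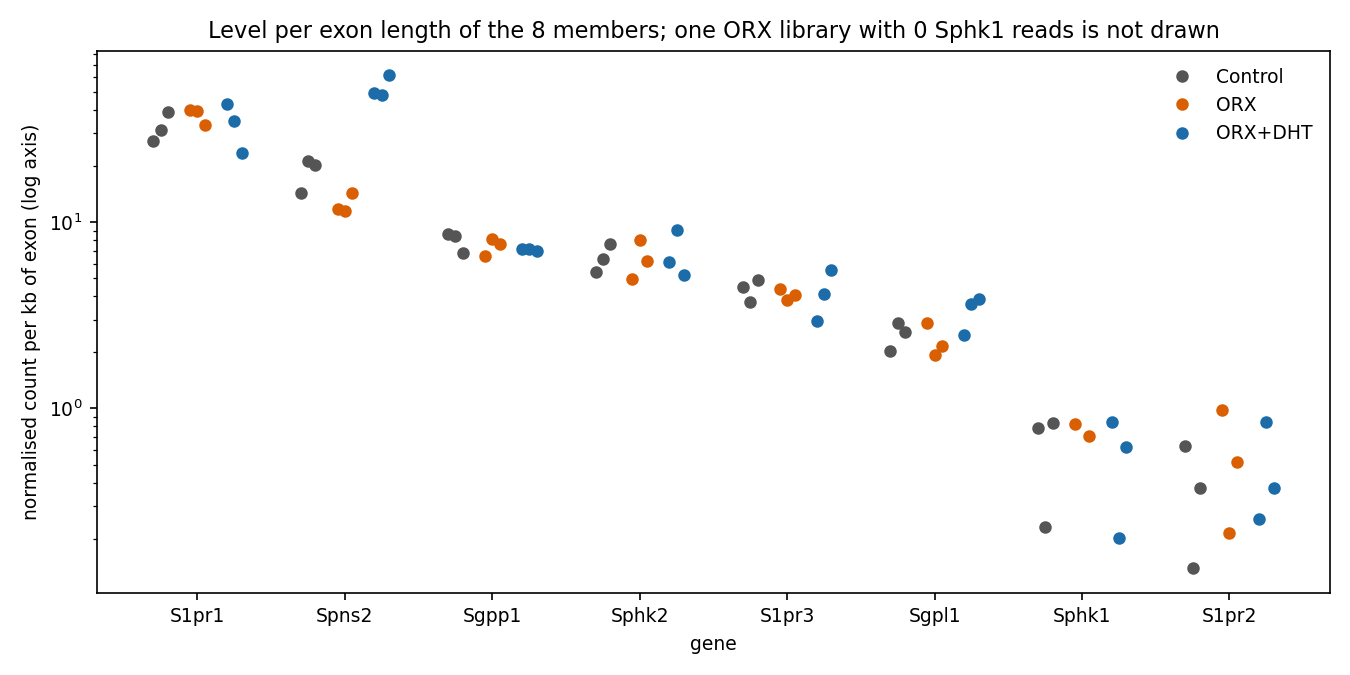
Normalised count per kb of merged exon (y axis, log scale) of the 8 genes, ordered by their mean; points are libraries, coloured by group, and the ORX library with 0 Sphk1 reads is not drawn. Spns2 lies between S1pr1 and Sgpp1 in control and ORX muscle and above S1pr1 in ORX+DHT muscle.

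Differences between groups were fitted with limma over all genes with a mean of at least 10 normalised counts, and a gene was called at a Benjamini-Hochberg adjusted p under 0.05. Of the 8 genes, 6 passed this filter in each comparison, and Sphk1 and S1pr2 did not. In ORX against control 0 of the 6 were called, where 0.0579% of all genes tested were; at an unadjusted p under 0.05 there was 1 (Spns2), and edgeR and DESeq2 called 0. Relative to ORX, 1 of 6 was called in ORX+DHT muscle (4.08% of all genes), and relative to control also 1 of 6 (0.0349%). In both cases that gene was Spns2, which had been picked for this difference, so nothing is read from these counts. Of the other 5 genes, 0 were called in each comparison by limma, edgeR or DESeq2, and 0 had an unadjusted p under 0.05, where 7.21%, 14.3% and 6.48% of all genes tested had. Their groups overlapped in all 3 comparisons, whereas the groups did not overlap for 14.3%, 19.5% and 14% of all genes tested.

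Removing the testes was followed by a lower mean of Spns2 that did not pass the test. The log2 fold change in ORX against control was -0.55 (SE 0.20, limma adjusted p 0.669), on the log2(normalised count + 1) scale used throughout. Without control replicate 1, the control library with the lowest Spns2 level, it was -0.72 (limma adjusted p 0.08). For Spns2 in ORX+DHT muscle the log2 fold change was 2.06 relative to ORX and 1.51 relative to control. Without control replicate 1 the latter was 1.34, and the other 5 tested genes lay between -0.24 and 0.10 in ORX against control and between -0.092 and 0.24 in ORX+DHT against control, with 0 called in either. As a description of the fit, the count of called genes in ORX+DHT against control fell from 1 to 0 without control replicate 3 or without ORX+DHT replicate 1, 2 or 3, although the log2 fold change stayed between 1.34 and 1.62 over the 6 fits that left out a library. The comparisons share libraries (both of those with ORX+DHT use the same 3 treated libraries), so they are not independent of each other.

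The kinases make S1P. Sphk2 (ENSMUSG00000057342, chr7:45709467-45718002), the kinase found mostly in the nucleus and at organelles, was at 22.5, 26.5 and 31.8 normalised counts in control, 20.6, 33.3 and 25.6 in ORX alone and 25.3, 37.7 and 21.7 in ORX+DHT muscle. The 3 groups covered nearly the same range. The log2 fold change of Sphk2 in ORX+DHT against ORX was 0.08 with a 95% interval of -0.44 to 0.59 (limma adjusted p 0.931). Sphk1 (ENSMUSG00000061878, chr11:116530925-116536674), the kinase that growth factors bring to the plasma membrane, was close to the limit of detection, at 0 to 4.05 normalised counts. It had 8 reads in each group of 3 libraries (exact Poisson 95% interval 3.45 to 15.8), and fitted without the filter its log2 fold change for ORX+DHT relative to ORX was 0.30, with a 95% interval of -0.95 to 1.55 (limma adjusted p 0.874). That interval is on the log2(normalised count + 1) scale, and how small a difference in Sphk1 could be detected at this depth was not tested. Summed over both kinases the level was 29.9 ± 5.14 in control, 29.0 ± 6.71 in ORX alone and 30.9 ± 7.11 in ORX+DHT muscle (SD, n = 3).

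The lyase and the phosphatase remove S1P. Sgpl1 (ENSMUSG00000020097, chr10:61098642-61147703), the lyase that cleaves S1P irreversibly, was at 12.5, 17.7 and 15.9 normalised counts in control, 17.7, 11.9 and 13.2 in ORX alone and 15.2, 22.2 and 23.7 in ORX+DHT muscle. ORX+DHT replicates 2 and 3 were above the other 7 libraries, and replicate 1 was among them. Its log2 fold change in ORX+DHT against ORX was 0.48 (95% interval -0.09 to 1.05, limma adjusted p 0.454), the largest among the 5 tested genes other than Spns2, and it did not pass. Only 152 reads over 9 libraries stand behind Sgpl1. Sgpp1 (ENSMUSG00000021054, chr12:75714249-75735729), the phosphatase that returns S1P to sphingosine in the endoplasmic reticulum, was at 48.7, 47.5 and 38.7 in control, 37.3, 46.1 and 43.0 in ORX alone and 40.5, 40.6 and 39.5 in ORX+DHT muscle. The ORX+DHT libraries of Sgpp1 lay inside the range of the other 6. Its log2 fold change in ORX+DHT muscle was -0.06 relative to ORX (95% interval -0.42 to 0.30, limma adjusted p 0.922) and -0.15 relative to control (95% interval -0.57 to 0.26, limma adjusted p 0.858).

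The receptors sense exported S1P. S1pr1 (ENSMUSG00000045092, chr3:115710433-115715072), the main receptor of endothelium and of circulating lymphocytes, was at 83.7, 95.1 and 119 normalised counts in control, 123, 120.3 and 101 in ORX alone and 132, 106 and 72.1 in ORX+DHT muscle. The ORX+DHT group held both the highest and the lowest of the 9 values. The log2 fold change of S1pr1 was 0.21 in ORX against control (95% interval -0.18 to 0.61, limma adjusted p 0.807) and -0.18 in ORX+DHT against ORX (-0.55 to 0.18, limma adjusted p 0.703). The second of these was 0.05 without ORX+DHT replicate 3, the library with the lowest S1pr1 and the highest Spns2.

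S1pr3 (ENSMUSG00000067586, chr13:51408639-51422797), a receptor of vascular smooth muscle among other cells, was at 19.98, 16.6 and 21.8 in control, 19.6, 17.1 and 18.2 in ORX alone and 13.2, 18.4 and 24.7 in ORX+DHT muscle. The treated libraries of S1pr3 spread to both sides of the others. Its log2 fold change in ORX+DHT against ORX was -0.0065 (95% interval -0.57 to 0.55, limma adjusted p 0.995). S1pr2 (ENSMUSG00000043895, chr9:20962361-20976781), another receptor of the family, had 8, 15 and 12 reads in control, ORX and ORX+DHT muscle, with exact Poisson 95% intervals of 3.45 to 15.8, 8.40 to 24.7 and 6.20 to 20.96. Fitted without the filter, its log2 fold change for ORX+DHT relative to ORX was -0.13, with a 95% interval of -1.23 to 0.96 (limma adjusted p 0.953). How small a difference in S1pr2 could be detected at this depth was not tested.

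The intervals bound how far the 5 tested genes other than Spns2 could have differed in ORX+DHT against ORX. Their upper 95% bounds ran from 0.18 for S1pr1 to 1.05 for Sgpl1 on the log2 scale. Their lower 95% bounds ran from -0.57 for S1pr3 to -0.09 for Sgpl1, with S1pr1 at -0.55. For ORX against control the 5 log2 fold changes ran from -0.10 for Sgpl1 to 0.21 for S1pr1 (limma adjusted p 0.807 to 0.981). For ORX+DHT relative to control they ran from -0.15 for Sgpp1 to 0.38 for Sgpl1 (limma adjusted p 0.78 to 0.977). Spns2 was also set against each gene within each library. The log2 difference between Spns2 and S1pr1 was -0.38 ± 0.23 in control, -1.15 ± 0.33 in ORX alone and 1.10 ± 0.61 in ORX+DHT muscle (SD, n = 3). That between Spns2 and Sgpp1 was 0.73 ± 0.42, 0.27 ± 0.22 and 2.39 ± 0.21. These differences contain the values that picked Spns2 and are not tested.

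**Figure D3:**
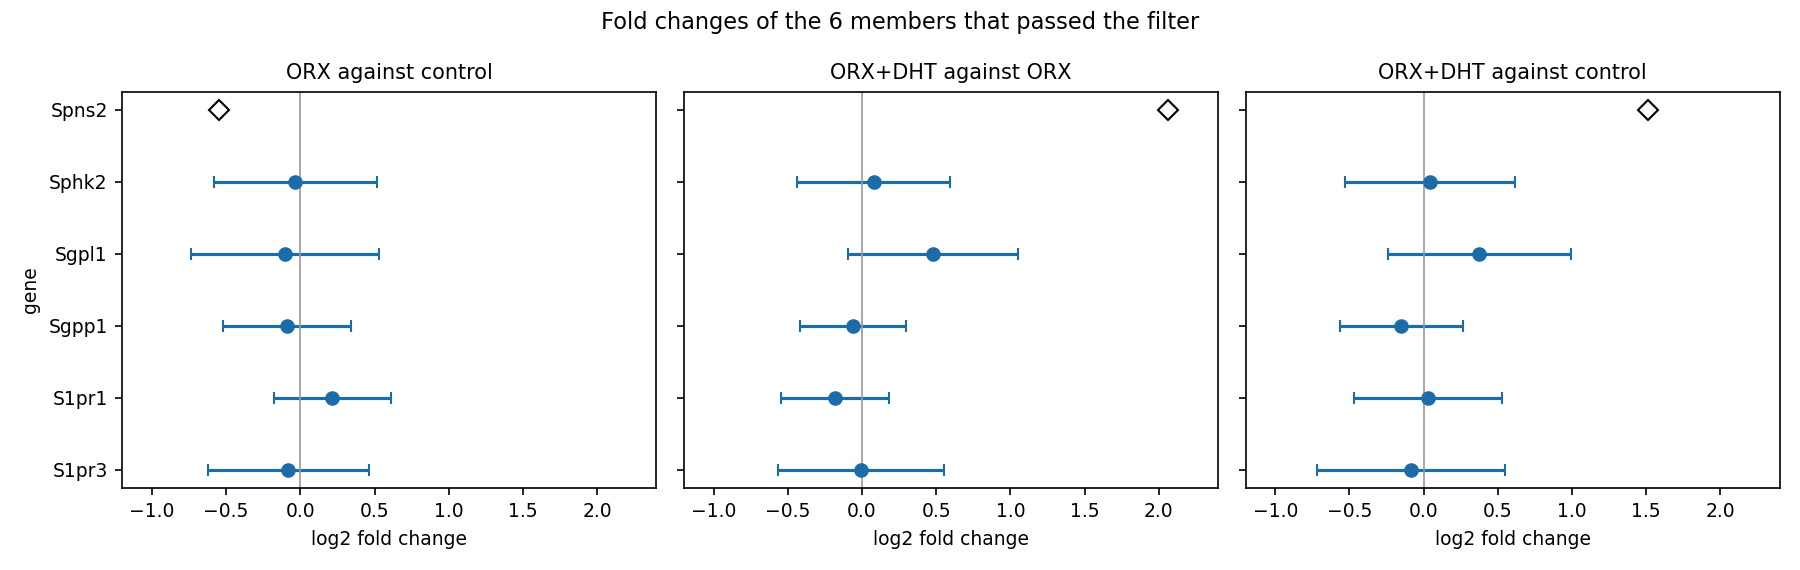
Log2 fold change (x axis) of the 6 genes that passed the filter in 3 panels, one for each comparison; circles with bars are limma estimates with 95% intervals, and open diamonds are Spns2, drawn without an interval because it was chosen for its difference. Every interval of the other 5 genes includes 0, while Spns2 lies at -0.55, 2.06 and 1.51.

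The wider pathway was read from a list of 45 genes of sphingolipid metabolism and S1P transport, of which 40 were listed in both tables (Cert1 under its older symbol Col4a3bp) and S1pr5, Apom, Acer1, Sptlc3 and Sptssb were not used. From this list 26 genes were tested in ORX against control, 26 for ORX+DHT relative to ORX and 24 for ORX+DHT relative to control. Of these limma called 0 in each, as did edgeR and DESeq2. Over all genes tested limma called 0.0579%, 4.08% and 0.0349%. In each comparison 2 genes had an unadjusted p under 0.05, where 7.21%, 14.3% and 6.48% of all genes tested had, so these counts are near or below the background. They are named after their values were seen. Groups did not overlap for 3 of 26, 3 of 26 and 7 of 24 genes of the list in the same order. Over all genes tested the shares were 14.3%, 19.5% and 14%, so the last count was above its background. The median log2 fold changes of the list were 0.0035, 0.028 and 0.059, beside -0.0077, 0.0062 and -0.0051 for all genes tested. Relative to ORX, in ORX+DHT muscle 14 of the 26 were higher and 12 lower.

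The genes at an unadjusted p under 0.05 did not pass the adjusted test. For ORX+DHT relative to ORX they were Plpp3, a lipid phosphate phosphatase of the plasma membrane, and Cers1, the ceramide synthase of muscle and brain. Plpp3 was at 131, 156 and 139 normalised counts in ORX, 159, 195 and 195 in ORX+DHT and 124, 140.4 and 157 in control muscle, and its log2 fold change was 0.36 (limma adjusted p 0.108). Each treated library was above each other library for Plpp3, by little for replicate 1. Cers1 was at 6.87, 11.1 and 11.6 in ORX, 19.3, 16.4 and 18.8 in ORX+DHT and 15.0, 15.5 and 15.9 in control muscle, and its log2 fold change was 0.85 (limma adjusted p 0.139). All ORX values of Cers1 lay below all control and treated values. In ORX against control they were Abca1, a cholesterol exporter that also carries S1P (log2 fold change 0.82, limma adjusted p 0.685), and the acid sphingomyelinase Smpd1 (-0.42, limma adjusted p 0.675). Without control replicate 1 these were 0.34 for Abca1 and -0.25 for Smpd1, and without control replicate 3 Abca1 was at 1.11. In ORX+DHT against control they were Plpp3 again (0.38, limma adjusted p 0.736) and Aldh3a2, which oxidises the aldehyde left by the lyase (0.59, limma adjusted p 0.736). Without control replicate 1 these were 0.29 and 0.44.

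The genes whose levels followed Spns2 most closely were found by Pearson's r of log2 values over the 9 libraries, among 8631 genes, as a description with no p. The 9 points share 3 groups, so the step between treated and other libraries enters r. Serinc3, for a serine incorporator protein of membranes, came first (r = 0.991). It was at 368, 467 and 426 normalised counts in control, 348, 330.1 and 393 in ORX alone and 703, 702 and 908 in ORX+DHT muscle. Like Spns2 it was highest in ORX+DHT replicate 3. After each group's mean was taken away its r with Spns2 was 0.934, at rank 21 of 8631 genes (counting Spns2 itself as rank 1). The next were Stab2 (0.969), for a scavenger receptor of sinusoidal endothelium, Ace (0.957), for the angiotensin-converting enzyme of endothelium, Zbtb16 (0.953), for a zinc finger factor known to respond to steroids, and Cd164 (0.950), for a sialomucin.

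Stab2 was at 17.5, 21.01 and 14.9 normalised counts in control, 13.7, 10.2 and 10.8 in ORX alone and 49.7, 48.3 and 57.3 in ORX+DHT muscle. Ace was at 37.5, 56.4 and 64.6, then 30.4, 34.1 and 53.8, then 113, 92.8 and 109 in the same order. Within groups, the r of Stab2 with Spns2 was 0.203 (rank 3295 of 8631) and that of Ace 0.815 (rank 232). The 3 genes that ran most opposite to Spns2 were Atp1b2 (r = -0.971), for a subunit of the sodium pump, Ampd1 (-0.968), for the AMP deaminase of muscle, and Mybph (-0.966), for a myosin-binding protein. Atp1b2 was at 586, 564 and 541 in control, 756, 804 and 687 in ORX alone and 355, 426 and 341 in ORX+DHT muscle. Leaving out any single library or using a pseudocount of 0.1 or 10 kept r between 0.932 and 0.995 for the first 5 genes and between -0.985 and -0.951 for the last 3. The order is less fixed than r: without control replicate 1, and counting Spns2 itself as rank 1, Serinc3 was at rank 2, Stab2 at 6, Zbtb16 at 13, Ace at 22 and Cd164 at 34 of 8611 genes. Among the pathway members, r with Spns2 was 0.726 for Sgpl1 (rank 279 of 8631), 0.102 for Sphk2, -0.0037 for S1pr3, -0.255 for S1pr1 and -0.349 for Sgpp1.

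**Figure D4:**
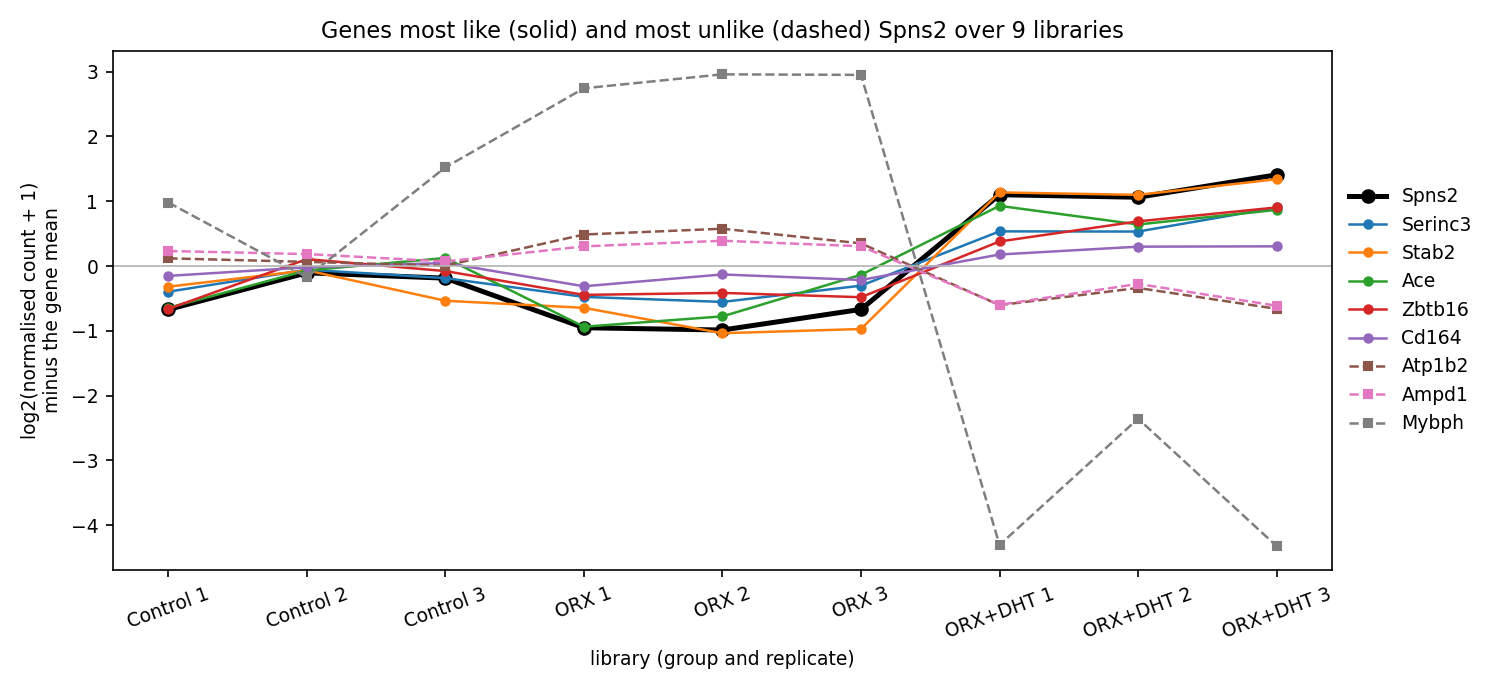
Log2(normalised count + 1) minus each gene's own mean (y axis) in the 9 libraries (x axis) for Spns2 (black), the 5 genes most like it (solid) and the 3 most unlike it (dashed). Serinc3 and Stab2 step up with Spns2 in the 3 ORX+DHT libraries, where Mybph, Ampd1 and Atp1b2 are at their lowest.

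Because Spns2 and S1pr1 are known from vessels, markers of vascular cells were read in the same libraries. In whole muscle, a change in the number of such cells and a change in RNA per cell cannot be told apart. All 12 markers of blood endothelium were listed, and their summed level was 1242 to 1395 in control, 1195 to 1431 with ORX alone and 1432 to 1554 in ORX+DHT muscle. The treated libraries were all above the others, by little for replicate 1. In ORX+DHT against ORX 9 of the 12 were higher, with a median log2 fold change of 0.16. All 3 tools (limma, edgeR and DESeq2) called 0, where limma called 4.08% of all genes tested. At an unadjusted limma p under 0.05 there were 5 of 12, where 14.3% of all genes tested were. Of these 5, Cldn5 was lower (log2 fold change -0.90), while Flt1 (0.27), Esam (0.33), Vwf (0.50) and Cdh5 (0.24) were higher. The 9 pericyte and smooth muscle markers summed to 1385 to 1803, 1674 to 1705 and 1816 to 1899 in control, ORX and ORX+DHT muscle. Of the 8 tested in ORX+DHT against ORX, 0 were called by any of the 3 tools (4.08% of all genes with limma). At an unadjusted limma p under 0.05 there were 3 of 8, where 14.3% of all genes tested were. The part of these marker levels in the level of Spns2 was not tested.

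Of 8 markers of lymphatic or sinusoidal endothelium, 7 were listed, and they summed to 59.9 to 95.3 in control, 70.8 to 105 with ORX alone and 136 to 141 in ORX+DHT muscle. Much of that step was Stab2, which rose in ORX+DHT against ORX (log2 fold change 2.08, limma adjusted p 6.34e-06). It was the only call among the 3 tested, where 4.08% of all genes tested were called. Stab2 had been named above for following Spns2 over these same libraries, so nothing is read from this call. Relative to control, limma did not call Stab2 in ORX+DHT muscle (limma adjusted p 0.0534), although its groups did not overlap. In that comparison edgeR and DESeq2 each called 1 of the 3 tested genes of this list. Stab2 passed in 6 of 15 refits with other settings, with the lowest limma adjusted p (0.00286) without control replicate 1. The call against control thus depended on the settings, and nothing is read from it either. Without Stab2 the sums were 42.5 to 80.4, 60.6 to 91.3 and 79.0 to 91.2, and the groups overlapped. Of the 6 fibroblast markers limma called 2 (4.08% of all genes), Col1a1 and Lum, which were named after their values were seen. They fell in ORX+DHT against ORX by 1.18 and 1.79 on the log2 scale (limma adjusted p 2.89e-06 and 4.81e-06). The other 4 did not pass with limma. Their log2 fold changes were -0.46 for Col3a1 (limma adjusted p 0.0597), -0.27 for Dpt, -0.051 for Dcn and 0.059 for Pdgfra. Of the 6 markers edgeR called 3 and DESeq2 called 2 in this comparison. The 6 summed to 1374 to 2759 in control, 2912 to 3902 with ORX alone and 1731 to 2440 in ORX+DHT muscle. Macrophage markers (6 of 6 listed) summed to 52.0 to 79.5, 63.1 to 125 and 85.1 to 127, and lymphocyte markers (5 of 6) to 4.97 to 5.53, 4.26 to 6.62 and 1.98 to 3.04. Red blood cell markers (5 of 5) summed to 146 to 248, 87.8 to 252 and 184 to 211, and satellite cell markers (3 of 3) to 6.24 to 8.94, 8.53 to 14.1 and 7.90 to 14.5. The part of any of these in the results was not tested.

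**Figure D5:**
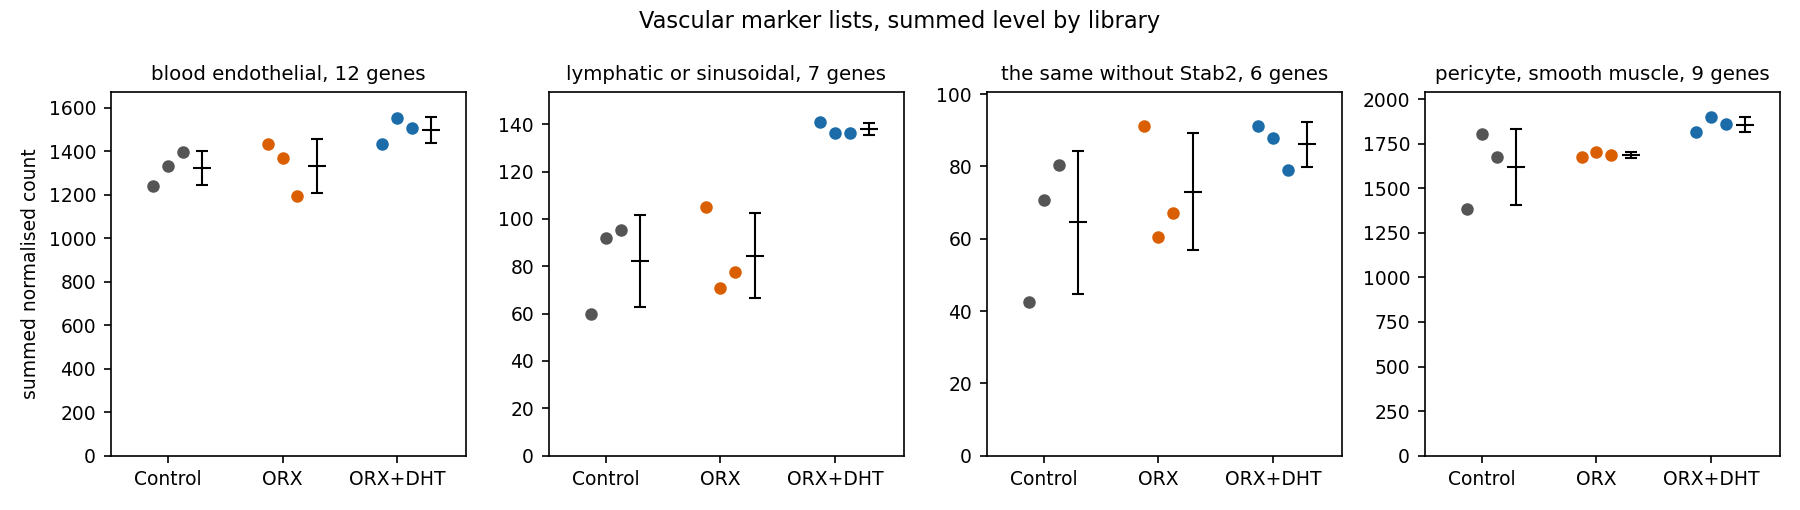
Summed normalised count (y axis, from 0) of vascular marker lists in every library; points are libraries by group and the bar is the mean ± SD (n = 3). The lymphatic or sinusoidal list separates ORX+DHT muscle (136 to 141) from the other groups with Stab2 and overlaps without it.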

How the data were processed

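RNA of tibialis anterior was sequenced from polyA-selected libraries made with a strand-keeping kit, per the labels' protocols. The submitters' processing notes name Trim Galore 0.6.7, HISAT2 2.2.1, featureCounts 2.0.1, DESeq2 1.36.0 and build GRCm38, without their roles. The authors deposited normalised counts of protein-coding genes, a signal in which read counts are divided by a factor of each library, in 1 table of control and ORX (14596 genes) and 1 of ORX and ORX+DHT libraries (14675 genes). In every column 100% of values were whole multiples of 1 step (relative tolerance 1e-06), which gave the reads back, and the factors equalled median-of-ratios factors. Sham columns were matched to the control samples by replicate number, and 0 columns were left out.

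Each comparison within a table used that table. ORX+DHT against control used the 14300 shared genes of 9 libraries rescaled together by median-of-ratios factors, as do printed levels. limma 3.58.1 (R 4.3.3, lmFit and eBayes with trend) was fitted on log2(normalised count + 1), without a block. It was also run on simulated reads with the same spread setting for every gene and no outlying library. These libraries differ from that, so nothing is read from the simulated run. P-values measure the spread between these samples. Lengths and gene positions came from GENCODE M21, and promoter windows from RefSeq GRCm38.p6. Named were the 8 members, pathway genes called by limma, and the 5 genes most like and 3 most unlike Spns2; Plpp3, Cers1, Abca1, Smpd1, Aldh3a2 and the named markers were added after their values were seen. The members and lists were chosen with earlier results of these data known. Alternatives were pseudocounts of 0.1 and 10, no filter, a minimum mean of 50, TMM, quantile normalisation, all 9 libraries in 1 fit, the replicate block, edgeR 4.0.16, DESeq2 1.42.0 and each library left out.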

Additional observations from a re-analysis of the deposited data

How the results depend on the processing

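The number of the 8 genes called was 0 for ORX against control, while for ORX+DHT muscle it was 1 relative to ORX and 1 relative to control, under all 10 alternatives that kept every library. Over the 6 fits per comparison that left out a library it was 0 to 0, 1 to 1 and 0 to 1. Every call in ORX+DHT muscle was Spns2, which had been picked for this difference, so these counts lend it no support. With the replicate number as a block the count was 0, 1 and 1. The block changed no call of these genes, but moved Plpp3 in ORX+DHT against ORX past the threshold (limma adjusted p 0.0329). The number only names a sample: same-numbered libraries of different groups correlated at -0.165 to 0.151 in their deviations from group means, and 3 of 9 libraries correlated best with their own number. Over all genes, the 5, 358 and 3 calls became 5, 571 and 3 with the block, 23, 123 and 11 with all 9 libraries in 1 fit, 28, 224 and 13 with DESeq2, 16, 370 and 3 with no filter, 6, 327 and 6 after quantile normalisation, and 1 to 51, 223 to 350 and 0 to 66 when a library was left out.

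Of 276 refits of single members, 255 kept direction and 21 changed sign, all of genes not called. Spns2 in ORX+DHT against control kept direction in 16 of 16 and passed in 12, a description only, because it was picked for this difference. S1pr3 in ORX+DHT against ORX turned to 0.0041 with a pseudocount of 10, 0.030 after quantile normalisation, 0.032 with edgeR and 0.031 with DESeq2. When a library was left out, log2 fold changes ran in ORX against control from -0.21 to 0.13 for Sphk2, -0.26 to 0.0071 for Sgpl1, -0.18 to 0.0014 for S1pr3 and -0.069 to 0.099 for Plpp3. In ORX+DHT against ORX they ran from -0.14 to 0.25 for Sphk2, -0.14 to 0.0068 for Sgpp1, -0.38 to 0.052 for S1pr1, -0.22 to 0.21 for S1pr3, -0.026 to 0.31 for Aldh3a2 and -0.013 to 0.12 for Smpd1. In ORX+DHT against control they ran from -0.18 to 0.21 for Sphk2, -0.16 to 0.27 for S1pr1, -0.30 to 0.13 for S1pr3, -0.0018 to 0.76 for Abca1 and -0.40 to 0.24 for Col1a1. The cause was not tested. Depth limits Sphk1 and S1pr2 most, with 24 and 35 reads over 9 libraries.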
